A study of Mus musculus with 3 samples.

Results

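The natural killer (NK) cells described here were 63 of the 17088 cell barcodes of dissociated 4T1 tumours, 42 of 9890 in a control library and 21 of 7198 in a library from tumours with a guide against Cpt1a. 4T1 is a mouse mammary carcinoma line. The 4T1-sgVC line, labelled WT, carried a control guide, and the 4T1-sgCPT1A line was labelled as a CPT1A knockdown. Both lines were grown in female mice aged 8 to 10 weeks, tumour-bearing mice were housed for 8 days, and the whole tumour was dissociated with no sort described. The guide sits in the tumour line, so the NK cells are host cells that carry no guide by this design. Neither the host strain nor the number of mice behind a library is given in the sources used here, and the labels call the model a cell-line-derived xenograft. Because depleting CD8 cells with an antibody did little to the regression of Cpt1a-depleted tumours, the series turned to their cellular composition. Each group had 1 library. The labels give sgCPT1A 1 more sample, which was not analysed here separately, and whether its reads are among the sgCPT1A counts is not known.

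NK cells are innate lymphocytes that kill target cells by releasing perforin and granzymes and that make chemokines and interferon gamma. They carry no rearranged antigen receptor. Activating receptors, many of which signal through the adaptors encoded by Tyrobp and Fcer1g, are balanced by inhibitory receptors that read MHC class I on the target, of which the Ly49 family is the main group in mice. CD8 T cells use much of the same killing machinery behind a T cell receptor, and were therefore taken as the comparison.

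The NK cells were chosen by their transcripts, among the 9610 sgVC and 6743 sgCPT1A barcodes that passed the cell filters (200 genes or more, mitochondrial UMIs no more than 20%). A UMI is a molecular tag that counts 1 captured transcript. A member had at least 3 UMIs summed over Ncr1, Klrb1c, Klre1, Eomes, Klra4 and Klra8, at most 1 UMI of Cd3e, Cd3d and Cd3g, none of Cd8b1, and under 0.1% of its UMIs from C1qa, C1qb and C1qc and from Wfdc2, Krt8 and Krt18. The limit of 3 UMIs was met by 62 sgVC and 37 sgCPT1A barcodes. The Cd3 limit then removed 14 and 16 of them, and the tumour-gene limit removed 6 and 0. The 254 CD8 T cells, 193 in sgVC and 61 in sgCPT1A, had at least 2 Cd3 UMIs, at least 1 Cd8b1 UMI and no Cd4 UMI.

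The genes that chose the cells are given as a description only. Ncr1, which encodes the activating receptor NKp46, had 144 UMIs in 33 of 42 sgVC cells and 74 UMIs in 17 of 21 sgCPT1A cells. Klrb1c, the gene of NK1.1, was seen in 18 and 13 cells, Klre1 in 28 and 10, and the transcription factor Eomes in 25 and 13. Klra4 and Klra8 had no UMI in any of the 63 cells, so neither brought a cell into the gate. The tolerated Cd3 transcript was mostly Cd3g, with 9 UMIs in sgVC and 2 in sgCPT1A, beside 1 UMI of Cd3d and none of Cd3e. Just inside the limit, the 10 cells with exactly 3 UMIs held 9669 Gzma, 2149 Prf1 and 1432 Tyrobp CPM (UMI counts scaled to a total of 1000000). Just outside it, the 17 cells with exactly 2 UMIs held 3268, 139 and 892, so the limit leaves out cells that also hold NK transcripts, 16 of which were in sgVC.

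The label was set beside markers that the rule did not use. All 9 of the listed NK markers outside the rule had UMIs in both libraries. All 9 also had UMIs in the sgVC CD8 T cells, so presence alone does not tell the classes apart. Tyrobp, Il2rb and Nkg7, the last not a listed marker, were each seen in at least 61 of the 63 cells. Il2rb was also seen in 161 and Tyrobp in 16 of the 254 CD8 T cells, and Tyrobp in 84.1% of neutrophil-gated barcodes. Foxp3, Cd4, Cd40lg, Cd8a, the 4 B cell markers and the 4 ILC3 markers had no UMI in these cells. Cd5 and Cd6 also had none. Other T cell genes were present. Trbc1, a constant gene of the T cell receptor beta chain, was seen in 34 of 42 and 19 of 21 cells, Trbc2 in 11 and 7, the co-stimulatory receptor gene Cd28 in 20 and 13 and Ikzf2 in 9 and 11. Trac, the constant gene of the T cell receptor alpha chain, had 3 UMIs in 2 sgVC cells and none in sgCPT1A. Markers listed for other types were seen as well. Among them were Ctla4 (regulatory T cells) in 7 and 2 cells, Trdc (gamma-delta T cells) in 9 and 3 and Gata3 (ILC2) in 15 and 6. The ILC1 markers Itga1 and Il7r were seen in 8 and 1 and in 1 and 5 cells, and the endothelial marker Pecam1 in 18 and 6.

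Depth was uneven and touches several results below. The sgVC library held 155948212 UMIs (median 10809 per barcode) and the sgCPT1A library 35557125 (median 2786), whereas the NK cells had medians of 3363.5 and 4534 UMIs. In sgVC, 6 NK barcodes with over 20000 UMIs held 57.7% of the 359581 NK UMIs, and no sgCPT1A NK barcode was that deep. Among sgCPT1A CD8 T cells, 9 such barcodes held 49.9% of the UMIs, and 5 barcodes with at least 0.1% fibroblast UMIs (Col1a1, Col1a2, Dcn) held 24.6%. No NK barcode held that share of fibroblast UMIs. Scrublet called 291 doublets (3.03%) in sgVC, 1 of them an NK cell, and 1 in sgCPT1A, where it was treated as not having worked. The libraries shared 18 barcodes, none of them an NK or a CD8 T cell.

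NK cells made up 0.437% of the kept sgVC barcodes (exact 95% Clopper-Pearson interval 0.315 to 0.590) and 0.311% of the kept sgCPT1A barcodes (0.193 to 0.476), and the intervals overlapped. A tumour-cell class held 4248 barcodes in sgVC and 39 in sgCPT1A. Its barcodes were over the tumour-gene limit, with C1q genes under 0.1%, no Cd3 UMI and under 3 UMIs of the NK genes. Outside this class, the NK share was 0.783% (0.565 to 1.06) in sgVC and 0.313% (0.194 to 0.478) in sgCPT1A, and these intervals did not overlap. Any other barcode over the tumour-gene limit stayed in this denominator. Of NK and CD8 T cells together, NK cells were 17.9% (13.2 to 23.4) and 25.6% (16.6 to 36.4). The intervals cover counting error only, the libraries have no replicate, and a rule of 3 UMIs finds fewer cells where cells are shallow. The denominators gave different orders, so no change in NK abundance is read from them.

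Granzymes C to G, serine proteases of cytotoxic granules, lie with granzyme B in a cluster on the minus strand of chromosome 14 (GRCm38). Gzme spans 56117626 to 56120625, Gzmd 56129556 to 56132608, Gzmg 56156582 to 56159579, Gzmf 56205263 to 56211417, Gzmc 56231441 to 56234656 and Gzmb 56258838 to 56262260 in GENCODE M21. Transcripts of granzymes C to G came mainly from the same 8 sgVC NK cells, described below, and the promoters are shown for that reason. Not every gene was in every cell, as Gzmg was seen in 7 and Gzmf in 5 of the 8. The promoter of Gzmb is shown for comparison. Gzmn, in the same cluster, had no RUNX match in its promoter and is not shown. Each window runs between, and 10 bases beyond, a pair of matches to the RUNX letters TGTGGT (either strand, in capitals), read from the RefSeq promoter table (GRCm38.p6; 250 bases before to 50 after the start) and written 5′ to 3′ on the gene's strand.
Gzmb (chr14:56262353-56262437): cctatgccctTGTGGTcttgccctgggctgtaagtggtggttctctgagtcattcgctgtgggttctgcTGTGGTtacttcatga
Gzmc (chr14:56234750-56234841): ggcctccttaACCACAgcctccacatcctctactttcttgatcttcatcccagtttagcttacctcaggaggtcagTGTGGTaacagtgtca
Gzmd (chr14:56132690-56132777): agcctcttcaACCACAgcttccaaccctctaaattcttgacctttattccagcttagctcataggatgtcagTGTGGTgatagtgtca
Gzme (chr14:56120723-56120810): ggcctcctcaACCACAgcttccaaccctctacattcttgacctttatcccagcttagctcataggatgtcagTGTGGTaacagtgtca
Gzmf (chr14:56211525-56211612): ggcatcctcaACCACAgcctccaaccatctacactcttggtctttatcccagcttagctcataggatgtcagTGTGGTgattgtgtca
Gzmg (chr14:56159692-56159779): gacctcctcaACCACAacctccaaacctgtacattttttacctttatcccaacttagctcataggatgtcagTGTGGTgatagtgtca

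The Gzmd, Gzme, Gzmf and Gzmg windows had the same length and the same 62-base spacing of the matches, and any pair of them was identical at 75 to 82 of 88 bases. The spacing was 66 in Gzmc and 59 in Gzmb, where both matches read in the same direction. Of 32851 promoters of this length, 16.8% held at least 1 such match and 1.81% at least 2. The windows were drawn around a pair and Gzmn was left out for having none, so these shares are no measure of enrichment. The T-box letters GGTGTGA, found in 3.98% of promoters, were in none of the 6 promoters shown, and TTCNNNGAA, a STAT motif found in 8.30%, was only in Gzmb. A match is a description of letters and says nothing of binding. Only these windows were compared, and how alike the transcripts of these paralogs are was not measured. Where they are alike, reads could be split among them by the counting, so their separate levels are uncertain while their sum is less so.

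To compare NK with CD8 T cells, UMIs were summed per class and library, giving 4 sums, and tested with edgeR's quasi-likelihood test with library as a block. Levels below are CPM, the UMIs of a gene scaled to a class total of 1000000, given for sgVC and then sgCPT1A. Of the 7479 genes tested that neither rule used, 142 (1.9%) were higher and 236 (3.16%) lower in NK cells at a Benjamini-Hochberg adjusted p under 0.05. The sign was the same in both libraries for 122 and 201 of them. The median log2 ratio of all genes tested was -0.07, with a gene that had no UMI in a class set at its bound of 3 counts, and the list medians below are of the same pooled ratio. Only 1 residual degree of freedom was left, so the test rested on a dispersion shared by all genes. Genes that accompany those of the 2 rules also differ by the way the classes were drawn.

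The counts depended on a few barcodes and on the tool. Without the barcodes with fibroblast transcripts, 109 of the higher and 87 of the lower genes were called again. Of the 95 lower genes with no NK UMI, 77 were not called again, among them Serpinf1, Col12a1, Cpxm1, Col6a3 and Mmp2, which were too low to be tested then. Without the barcodes over 20000 UMIs, 90 and 101 were called again. DESeq2 on all barcodes called 20 of the 142 and 15 of the 236. Another fit used cells thinned to 1000 UMIs. A core of 24 higher and 34 lower genes was called in that fit, in the fit without fibroblast-transcript barcodes and in the fit without barcodes over 20000 UMIs. Other fits that left out barcodes were not required for the core. These fits were run separately, and none combined the changes. DESeq2 called 13 and 14 of the core genes. Among the 24 were Tyrobp, Fcer1g, Irf8, Xcl1, Prf1, Klra3, Txk, Il2rb, Serpinb9, Serpinb6b, Gzmc, Gzmd and Gzme. Among the 34 were Trac, Trbc2, Bcl11b, Cd6, Themis, Lat, Gzmk, Cxcr6, Cd69, Ly6c1, Ly6c2, Ly6e and Ifitm3.

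**Figure D1:**
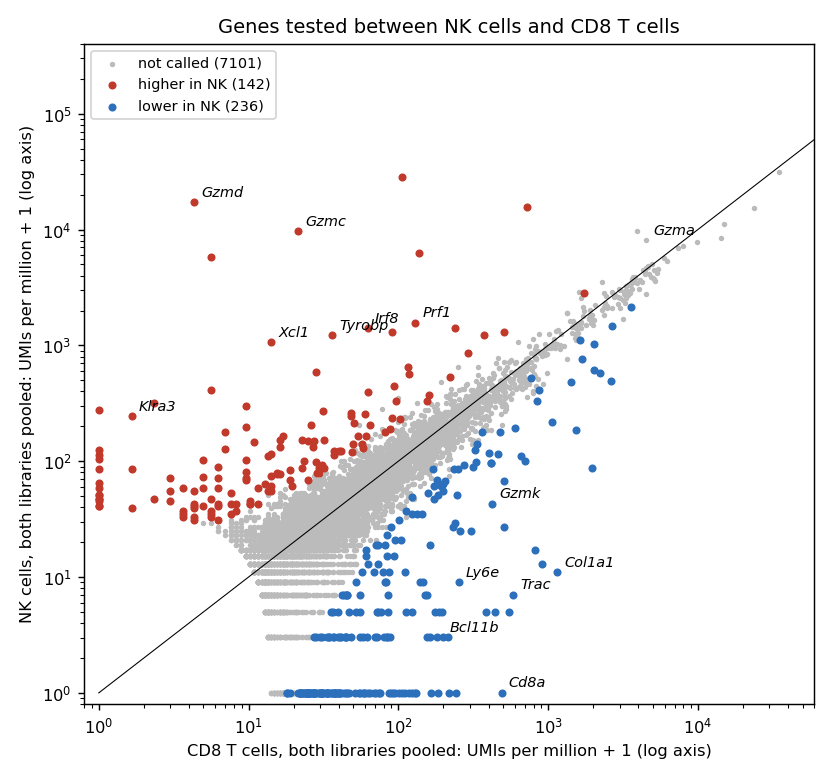
Each point is 1 of the genes tested between NK cells (vertical axis) and CD8 T cells (horizontal axis), both libraries pooled, in CPM + 1 on log axes; the line marks equal levels. The 142 genes called higher are red and the 236 called lower are blue; the row of blue points at the bottom holds genes with no UMI in NK cells.

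Of 22 listed genes for adaptors and activating receptors tested, 9 were called higher and 1 lower (list median 0.59), and 7 and 2 were called without the deep barcodes. Tyrobp, the DAP12 adaptor that links several activating receptors to tyrosine kinases, was at 1210 and 1241 CPM in NK cells and 50.2 and 14.1 in CD8 T cells, so the classes did not overlap. The pooled ratio was 34.8-fold (counting interval 26.3 to 47.0), with an edgeR log2 difference of 5.36 ± 0.39 (SE) and an adjusted p of 7.16e-39. Fcer1g, the Fc receptor gamma chain used by NKp46 and CD16, was at 1318 and 1291 against 107 and 64.3 (14.7-fold; edgeR adjusted p 1.11e-25). Both adaptors are also neutrophil transcripts. After thinning to 1000 UMIs, Tyrobp was seen in 75.8% of NK cells, 2.41% of CD8 T cells and 63.9% of neutrophil-gated barcodes. Without thinning, the neutrophil genes S100a8 and S100a9 were seen in 6 and 10 of the 63 NK cells and in 97.6% and 99.6% of neutrophil-gated barcodes. The part of neutrophil RNA in these adaptor levels was not tested.

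Signalling genes near these receptors were also higher. Txk, a Tec-family kinase, was at 178 and 462 in NK cells against 70.7 and 42.4 in CD8 T cells (edgeR adjusted p 1.01e-06). Sh2d1b1, which encodes the EAT-2 adaptor of SLAM receptors, was at 86.2 and 79.3 against 1.14 and 0. Klrb1a and Klrb1f, further NKR-P1 lectins, were at 22.2 and 101, and at 61.2 and 101, in NK cells. Klrb1a had no UMI in CD8 T cells, which makes it at least 22.3-fold higher when CD8 T cells are set at 3 counts, and Klrb1f was at 4.56 and 3.14 there. Cd244a (2B4), Fcgr3 (CD16) and Plcg2 were also called higher. Cd2, an adhesion receptor of T cells, was lower, at 77.9 and 115 against 330 and 293.

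The shared lectin receptors did not separate the classes. Klrd1, the CD94 chain, was at 489 and 664 in NK cells and at 488 and 578 in CD8 T cells (edgeR adjusted p 0.984). The counting interval of the pooled ratio ran from 0.887 to 1.18. Klrk1, which encodes NKG2D, was at 147 and 310 against 201 and 253, and Nkg7, a granule membrane protein of cytotoxic lymphocytes, at 1607 and 1551 against 1916 and 1310. Neither passed the test (adjusted p 0.985 and 0.997), and for each the library values of the classes overlapped.

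Of 8 genes tested from a list of Ly49 and related receptors, 5 were called higher and none lower (list median 3.47). Without the deep barcodes, 2 of 5 were called higher and 1 lower. Klra3, the Ly49C receptor, was at 245 and 238 in NK cells against 1.14 and 0 in CD8 T cells, and was seen in 30 of 63 NK cells and 1 of 254 CD8 T cells (edgeR log2 difference 8.10 ± 0.72, adjusted p 3.05e-26). Klri2, a lectin that pairs with Klre1, was at 94.6 and 57.7 and had no CD8 UMI, which gives at least 42.5-fold. Klra7 (Ly49G) was at 89.0 in sgVC and had no UMI in the sgCPT1A NK cells. Klrg1, a member of this list whose ligands are cadherins and not MHC class I, was at 200 and 28.8 against 18.3 and 11. Ly49 genes are near copies of each other, so counts of single members are uncertain.

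Of 11 genes tested from a list of checkpoint and inhibitory receptors, none was called higher and 2 were called lower by edgeR (list median -0.42). DESeq2 called none. Without the deep barcodes, 4 of 10 were called lower (Cish, Ctla4, Lag3 and Pdcd1) and 0 higher, and after thinning 0 of 6 were called. Over all genes tested 1.9% were called higher and 3.16% lower, so having none higher among 11 is near the background. The 2 lower of 11 are a larger share than the background. Pdcd1, which encodes PD-1, had 1 UMI in the 63 NK cells (0 and 7.21 CPM) against 61.6 and 84.7 in CD8 T cells (adjusted p 3.49e-06 by edgeR). Cish, a suppressor of cytokine signalling, was at 33.4 and 36.1 against 118 and 176 (adjusted p 0.00217 by edgeR). Havcr2 (TIM-3) went opposite ways in the libraries, at 225 and 7.21 in NK cells against 46.8 and 113.

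**Figure D2:**
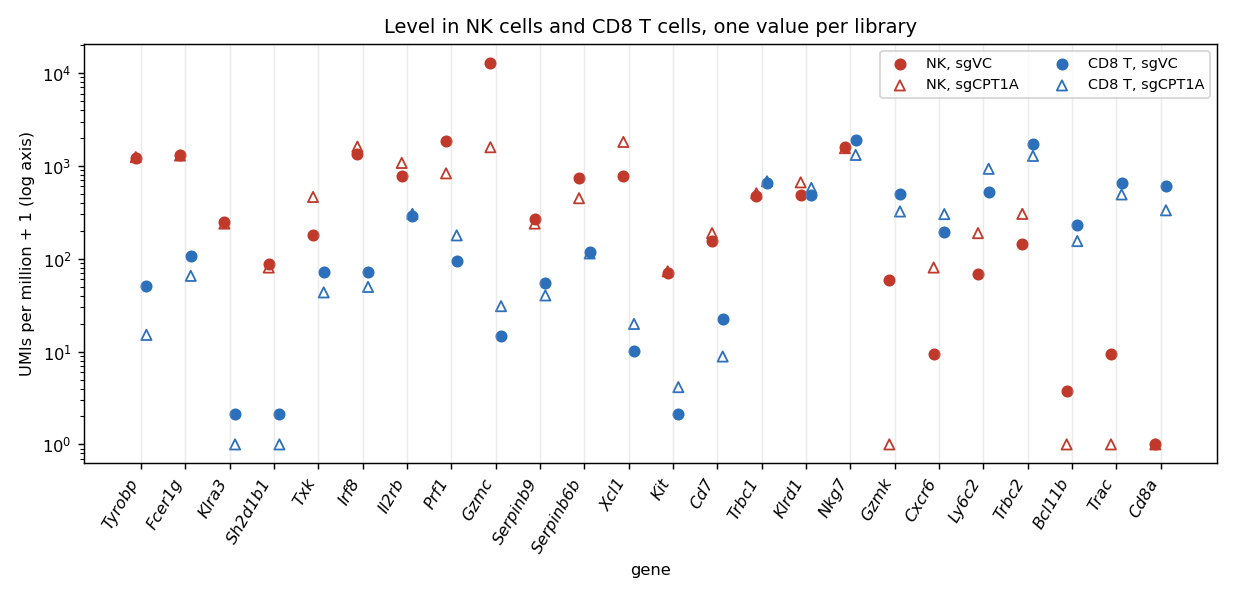
Level of 24 genes in CPM + 1 (log axis), red for NK cells and blue for CD8 T cells, filled circles for sgVC and open triangles for sgCPT1A; each point is 1 library and there are no error bars. Tyrobp, Irf8, Klra3 and Xcl1 lie apart in both libraries, Trbc1, Klrd1 and Nkg7 overlap, and Trac, Bcl11b and Cd8a are low or at 0 in NK cells.

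Of 24 genes of the cytotoxic granule, 8 were called higher (Gzmc, Gzmd, Gzme, Gzmf, Gzmg, Prf1, Serpinb9 and Serpinb6b) and 2 lower (Gzmk and Gzmm), with a list median of 0.56. Prf1, which encodes the pore-forming protein perforin, was at 1855 and 829 in NK cells against 93.6 and 177 in CD8 T cells. Its classes did not overlap, and the edgeR log2 difference was 3.27 ± 0.36 (adjusted p 4.20e-17). Serpins that protect a killer cell from its own proteases were higher too.
Serpinb9 was at 270 and 238 against 53.6 and 39.2 (5.49-fold; edgeR adjusted p 5.36e-07), and Serpinb6b at 731 and 447 against 118 and 113 (5.64-fold; edgeR adjusted p 1.01e-08). Gzma and Gzmb were abundant in both classes and did not pass the edgeR test (adjusted p 0.233 and 0.2). Gzma was at 9216 and 5056 against 4743 and 4236. Gzmb was at 12170 and 3166 against 3961 and 3895, higher in the NK cells of one library and lower in those of the other. Without the deep barcodes Gzmb was called lower in NK cells (edgeR log2 difference -0.92, adjusted p 1.54e-05), and after thinning Gzma was called higher (edgeR log2 difference 1.12, adjusted p 1.1e-06). Gzmk, a granzyme of memory-type CD8 T cells, was lower in NK cells, at 58.4 and 0 against 499 and 322 (edgeR adjusted p 1.11e-13).

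Granzymes C to G came from few NK cells. Gzmd was at 23666 and 454 in NK cells against 3.42 and 3.14 in CD8 T cells, and Gzmc at 12801 and 1587 against 13.7 and 29.8. Gzme was at 8012 and 72.1 against 0 and 11. Gzmf and Gzmg were at 8710 and 39685 in sgVC NK cells and had no UMI in the sgCPT1A NK cells, where CD8 T cells held 325 and 12.6, so these calls did not have the same sign in both libraries. Without the fibroblast-mixed barcodes Gzmf and Gzmg were no longer called (edgeR adjusted p 0.83 and 0.065). Their log2 differences were 3.94 ± 4.18 and 5.76 ± 1.58 (SE) then, against 3.71 ± 0.98 and 5.65 ± 0.46 with all barcodes, so the error grew and the difference did not shrink.

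In sgVC, 8 of 42 NK cells held at least 20 UMIs of these 5 genes, a limit set after the values were seen. They held 227 to 15677 such UMIs each, 15.0% of all their UMIs, and the other 34 cells held 8 in all. Gzmc, Gzmd and Gzme were seen in all 8 cells, Gzmg in 7 and Gzmf in 5. Of the 3132 Gzmf UMIs, 1 cell held 2302 and another 822. In the deepest cell the 5 genes took 27.6% of 56700 UMIs. The 8 cells had 10018 to 56700 UMIs (median 29662.5) against a median of 2758 in the other 34, and together held 62.1% of the sgVC NK UMIs. In sgCPT1A, 2 of 21 cells passed the limit, with 23 and 266 such UMIs. Few CD8 T cells did, 2 of 193 and 4 of 61.

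The 8 cells differed from the other 34 in many further genes, given here without a test because the limit chose them. Spp1 (osteopontin) was at 34242 against 506 CPM, Tnfrsf9 (4-1BB) at 2916 against 176, Gzmb at 18592 against 1651 and Prf1 at 2656 against 543. Spp1 was seen in all 8 cells, but 5980 of its 7714 UMIs in sgVC NK cells came from 1 cell. Havcr2 was seen in 7 of the 8 cells and in none of the 34. Transcripts of chemokines and of interferon gamma were low in them. Ccl5 was at 4.48 against 6243, Ccl4 at 4.48 against 4622, Ifng at 26.9 against 770 and Xcl1 at 273 against 1585. Each of these genes was seen in only 1 of the 8 cells, and 1 cell held all 61 Xcl1 UMIs.
The neighbouring protease genes Mcpt8 and Ctsg, on the same strand beside the cluster, were seen in 7 and 3 of the 8 cells and in no other NK or CD8 T cell. Mcpt8 is otherwise a basophil transcript and Ctsg a neutrophil-precursor one, and the basophil and mast cell genes Fcer1a, Cpa3 and Gata2 had no UMI in the 8 cells. Kit, which mast cells and other lymphoid cells also express, was seen in 5 of the 8 and in 5 of the other 34. Tyrobp was at 981 in them against 1585, Fcer1g went the other way at 1527 against 976, and Cd3g was absent. Their NK rule genes were at lower levels, with Ncr1 at 215 against 704 CPM, Klrb1c at 4.48 against 213, Klre1 at 139 against 271 and Eomes at 112 against 286. By cells, Ncr1 was seen in 4 of the 8 and Klrb1c in 1, against 29 and 17 of the 34. Klre1 was seen in 6 and Eomes in 5 of the 8, against 22 and 20 of the 34. The part of depth or of mixed droplets in these profiles was not tested.

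**Figure D3:**
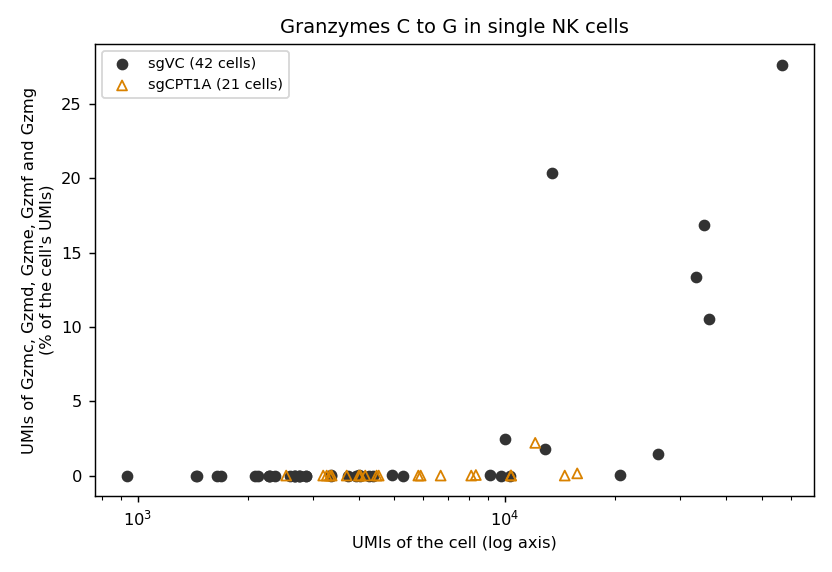
Each point is 1 NK cell, with its UMIs on a log axis and the percent of them from Gzmc, Gzmd, Gzme, Gzmf and Gzmg. All cells above 1% have at least 10018 UMIs; 8 are from sgVC and 1 from sgCPT1A, and the deepest sgVC cell reaches 27.6%.

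NK cells made more transcripts of several chemokines. Of 10 genes for secreted cytokines and chemokines, 4 were called higher (Ccl3, Ccl4, Xcl1 and Cxcl10) and 1 lower (Csf1), with a list median of 0.48. Xcl1, the chemokine that draws XCR1-positive dendritic cells, was at 770 and 1810 in NK cells against 9.13 and 18.8 in CD8 T cells. The pooled ratio was 80.2-fold (51.4 to 132), the edgeR log2 difference 6.45 ± 0.42 (adjusted p 3.25e-48), and the DESeq2 adjusted p 3.52e-29. It was seen in 36 of 63 NK cells, 7 of 254 CD8 T cells and 3 of 5656 neutrophil-gated barcodes. Cxcl10, a chemokine induced by interferons, was at 637 and 2798 against 426 and 301 (edgeR adjusted p 1.93e-06).
Ccl4 was at 1755 and 5568 against 2189 and 1091, and Ccl3 at 122 and 1580 against 146 and 322. Both calls (edgeR adjusted p 0.0267 and 0.0439) rest on sgCPT1A, since both genes were slightly lower in sgVC NK cells. Without the fibroblast-mixed barcodes neither was called (edgeR adjusted p 0.31 for each), with log2 differences of 0.91 and 0.97 against 1.01 and 1.08 for Ccl4 and Ccl3. Both were called without the deep barcodes (edgeR adjusted p 9.6e-08 and 0.0019) and after thinning (1.8e-07 and 0.015). Ccl5 and Ifng did not pass (edgeR adjusted p 0.959 and 0.429). Ifng was at 309 and 1039 against 790 and 935. Ifnb1, the gene of interferon beta, had 29 UMIs in 3 NK cells and none in CD8 T cells. Lta was the only one of 5 death ligand genes tested to be called higher, at 19.5 and 173 against 6.85 and 18.8.

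The highest levels of Gzma and of Xcl1 were mostly in different NK cells. Gzma was seen in 51 cells and Xcl1 in 36, 26 held both and 2 held neither. Of the 8 cells with at least 20 Xcl1 UMIs, 6 had no Gzma UMI, and of the 18 cells with at least 50 Gzma UMIs, 15 had no Xcl1 UMI. Across cells, Spearman's rho of the levels was -0.57 over the 42 sgVC cells and -0.26 over the 21 sgCPT1A cells. After thinning to 1000 UMIs it was -0.52 and -0.05. Xcl1 was then seen in 35.3% of the sgVC cells with Gzma and 71.4% of those without, and in 53.8% and 37.5% of the sgCPT1A cells. Cells of a library share their source and the counts are sparse, so these are descriptions, and the sgCPT1A value did not last through thinning.

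**Figure D4:**
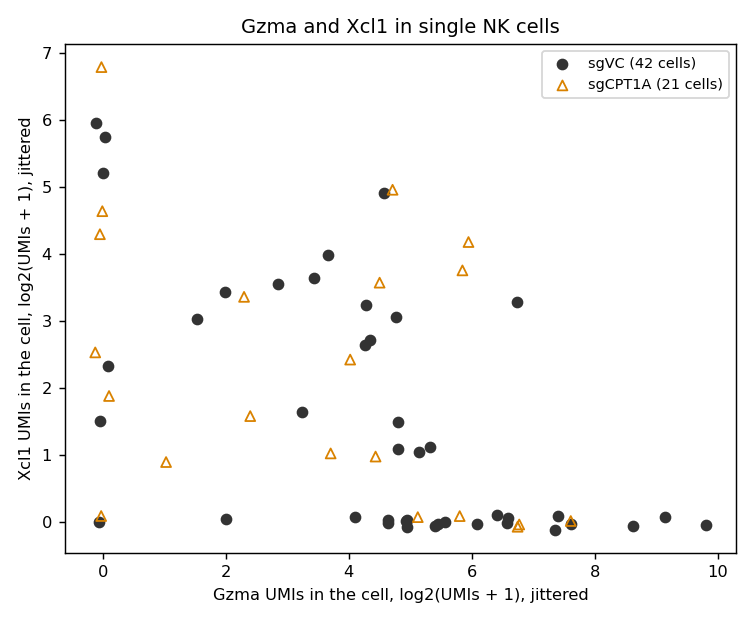
Each point is 1 NK cell, with Gzma and Xcl1 UMIs as log2(UMIs + 1) and a small random shift to separate points. Of the 18 cells with at least 50 Gzma UMIs, 15 lie on the bottom row without Xcl1; cells high in Xcl1 mostly lie at the left edge without Gzma.

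Of 24 genes for cytokine receptors and their signalling, Il2rb and Stat3 were called higher and none lower (list median -0.046). Il2rb, the chain through which IL-2 and IL-15 signal, was at 768 and 1075 in NK cells against 284 and 303 in CD8 T cells (2.92-fold, 2.55 to 3.34; edgeR log2 difference 1.62 ± 0.32, adjusted p 3.28e-05). It was seen in 62 of the 63 NK cells. Stat3, a transcription factor activated by cytokines, was at 314 and 368 against 139 and 177. Spry2, a feedback inhibitor of receptor tyrosine kinase signalling, was at 69.5 and 527 against 7.99 and 9.42 (edgeR adjusted p 6.47e-15).

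Homing and adhesion genes were called lower more often than higher, 5 against 2 of 22 tested (list median -0.41). Cd9, a tetraspanin, was higher, at 209 and 288 against 87.9 and 121. Cxcr6, a receptor for the chemokine CXCL16, was lower at 8.34 and 79.3 against 193 and 301 (edgeR adjusted p 8.31e-08). Cd69, an early activation marker that holds lymphocytes in tissue, was lower at 281 and 469 against 829 and 866 (adjusted p 0.00431 by edgeR). Cxcr3, S1pr1 and the integrin gene Itga1 were also lower, and S1pr1 had no UMI in NK cells.

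Sets that tell tissue-resident type 1 innate lymphoid cells (ILC1) from circulating NK cells were mixed. Of 12 ILC1 genes, Cd7 and Kit were called higher and Itga1 and Cxcr6 lower (list median -0.97). Of 11 genes of circulating NK cells, 4 were higher, among them Irf8, Klrg1 and Prf1, and Ly6c2 was lower (list median 0.53). Cd7 was at 153 and 188 against 21.7 and 7.85, and Kit, the stem cell factor receptor, at 69.5 and 72.1 against 1.14 and 3.14 (edgeR adjusted p 5.06e-10 and 3.66e-09). Ly6c2 was at 66.7 and 188 against 526 and 929. These counts compare NK with CD8 T cells, so they place no cell between the NK and ILC1 types.

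Among transcription factors, 4 of 25 genes were called higher (Irf8, Ikzf2, Nr4a3 and Myb) and Bcl11b lower (list median 0.23). Irf8, needed for NK cell responses as well as for dendritic cells, was at 1329 and 1608 in NK cells against 70.7 and 48.7 in CD8 T cells. The ratio was 22.9-fold (18.4 to 28.7), with an edgeR log2 difference of 4.61 ± 0.37 (adjusted p 9.30e-33) and a DESeq2 adjusted p of 3.31e-21. It was seen in 61 of 63 NK cells, 51 of 254 CD8 T cells and 1.63% of neutrophil-gated barcodes. Ikzf2 (Helios) was at 52.8 and 274 against 13.7 and 12.6. Tbx21, which encodes T-bet, and Id2 did not pass (edgeR adjusted p 0.673 and 0.985). Bcl11b, the factor that commits thymocytes to the T lineage, had 1 UMI in NK cells against 228 and 154 CPM in CD8 T cells (edgeR adjusted p 1.41e-13).

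Of 21 genes of the T cell receptor complex tested, 10 were called lower in NK cells, 11 were not called and none was called higher (list median -1.40). This direction follows in part from the Cd3 and Cd8b1 limits and is given as a description of the gates. Trac was at 8.34 and 0 against 647 and 491, and Trbc2, a beta chain constant gene, at 142 and 303 against 1735 and 1279. Cd8a, Themis and Cd6 had no NK UMI, which puts them at least 81.0-, 19.4- and 14.2-fold lower. Trbc1, the other beta constant gene, was among the 11 not called. It was at 467 and 505 in NK cells against 649 and 681 in CD8 T cells (edgeR adjusted p 0.691) and was seen in 53 of 63 NK cells. The gamma-delta constant genes split, with Trdc (64.0 and 21.6 against 11.4 and 0) and Trgc4 (33.4 and 79.3 against none) higher and Trgc2 (2.78 and 0 against 26.2 and 48.7) lower. A 3′ count of a constant gene does not show whether the receptor locus was rearranged.

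Genes that report on the state of the cells changed in few cases. Of 38 genes induced by type I interferon, Oasl1 was called higher and Ifitm3, Phf11b, Ly6a and Ly6e lower (list median -0.60). Oasl1 was at 117 and 671 in NK cells against 27.4 and 34.5 (edgeR adjusted p 2.15e-11), and it is also common in neutrophils, with a UMI in 44.4% of neutrophil-gated barcodes against 47.6% of NK cells. Ifitm3, an interferon-induced membrane protein that restricts viral entry, was at 156 and 375 against 877 and 1296 (edgeR adjusted p 1.53e-08). Ly6e was at 2.78 and 21.6 against 229 and 282.
Of 25 cell division genes, Top2a, Rrm2 and Hmgb2 were called lower (list median -0.43), and none was called once the deep barcodes were left out. Of 24 immediate early and heat shock genes, Atf3 was higher and the heat shock genes Hspa1a and Hspa1b lower, and Hspa1a was at 66.7 and 173 against 299 and 567 (edgeR adjusted p 1.44e-05). Of 23 interferon gamma-induced genes, 2 were higher and 2 lower, and of 23 glycolysis and hypoxia genes, Hilpda and Vegfa were higher and Hif1a lower. Of 13 genes that mark transcripts of other cells, Spint2 was higher and 6 lower, among them Col1a1, whose CD8 level of 2732 in sgCPT1A came from the fibroblast-mixed barcodes.

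Further genes outside these lists were called as well. Atp1b1, a subunit of the sodium-potassium pump, was at 91.8 and 166 CPM and had no CD8 UMI (at least 56.7-fold). Car2, a carbonic anhydrase, was at 651 and 411 against 46.8 and 0. Fcrl6, an Fc receptor-like gene, was at 425 and 36.1 against 0 and 3.14, and Serpinb9b at 565 and 14.4 against 2.28 and 7.85, where the sgCPT1A NK level rested on 2 UMIs. Both were mostly in sgVC and concentrated in few cells, with 41.1% and 43.9% of their NK UMIs in 1 cell. Nrgn and Pdgfa, a calmodulin-binding protein and a growth factor, were each seen in 13 NK cells. Esm1 and Adam19, a proteoglycan and a metalloprotease, had no NK UMI and were seen in 78 and 80 of the 254 CD8 T cells.

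The comparison between libraries within NK cells has 1 library a group and therefore no test. Of 3279 genes with at least 20 NK UMIs, 524 (16%) were at least 2-fold higher in sgCPT1A and 327 (9.97%) at least 2-fold lower. Leaving out the 6 deep sgVC barcodes changed this to 184 and 135 of 2247 genes. In CD8 T cells, 540 (8.15%) and 342 (5.16%) of 6623 genes passed the same limits. Differences in depth, in the mice and in library preparation cannot be told apart from the guide here.

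Tyrobp and Irf8 had similar levels in the NK cells of both libraries, with sgCPT1A over sgVC ratios of 1.03-fold and 1.21-fold. Genes of secreted cytokines and chemokines were higher in sgCPT1A for 6 of 7 genes at 2-fold, with a median log2 ratio of 1.67 against 0.15 for all genes. Ccl3 was at 122 (counting interval 88.9 to 164) in sgVC and 1580 (1377 to 1803) in sgCPT1A, and still 289 against 1580 without the deep barcodes. In Ccl3, 62.4% of all NK UMIs came from 1 cell. For Ccl5 (2369 and 6801), Ccl4 (1755 and 5568), Ifng (309 and 1039) and Xcl1 (770 and 1810), leaving out the deep barcodes brought the sgVC level to 5591, 4144, 691 and 1342. The list then had 1 of 7 genes at 2-fold and a median of 0.59.

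Genes induced by type I interferon were at least 2-fold higher in sgCPT1A NK cells for 16 of 19 genes and lower for none (median log2 ratio 1.66). Without the deep barcodes it was 8 of 19 (median 0.84), against 184 of 2247 of all genes. In CD8 T cells it was 11 of 37 (median 0.56), and 23 of 33 (median 1.34) without deep barcodes, where 372 of 5703 of all genes were at least 2-fold higher. Isg15, a ubiquitin-like protein that is among the most strongly interferon-induced, was at 133 (98.4 to 177) in sgVC and 685 (554 to 838) in sgCPT1A NK cells, and at 296 in sgVC without the deep barcodes. Oasl1 was at 117 and 671, and at 250 in sgVC without them. Ifitm1, of the same family as Ifitm3 but not on this list, went the other way and was lower in sgCPT1A NK cells, as given below. Isg15 and Oasl1 are both common in neutrophils, with Isg15 in 88.4% of neutrophil-gated barcodes, and the gate for neutrophils held 1510 barcodes in sgVC and 4146 in sgCPT1A. The part of free neutrophil RNA in these levels was not tested.

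Immediate early and heat shock genes (13 of 23 higher) and interferon gamma-induced genes (9 of 17 higher) were also above the background in sgCPT1A, and were 3 of 23 and 4 of 17 without the deep barcodes. The rise was not particular to these lists. Cytokine receptors and signalling had 10 of 15 higher (3 of 15 without the deep barcodes) and transcription factors 8 of 19 (4 of 19). T cell receptor genes had 5 of 12 higher (2 of 11), ILC1 genes 4 of 8 (4 of 7) and circulating NK genes 4 of 9 (2 of 8). Cell division genes were lower for 10 of 15, and for 8 of 10 without the deep barcodes (median log2 ratio -2.42). CD8 T cells showed 1 of 25 lower with all barcodes and 21 of 24 without the deep ones. Of all genes without the deep barcodes, 135 of 2247 in NK cells and 732 of 5703 in CD8 T cells were at least 2-fold lower. Granule genes were lower for 9 of 19 and higher for 1, with 5 of 18 lower without the deep barcodes. Gzmb was at 12170 in sgVC and 3166 in sgCPT1A, but at 2427 in sgVC without the deep barcodes, which turned its direction. Gzma kept its direction, at 9216 and 5056, and 9977 in sgVC without them.

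**Figure D5:**
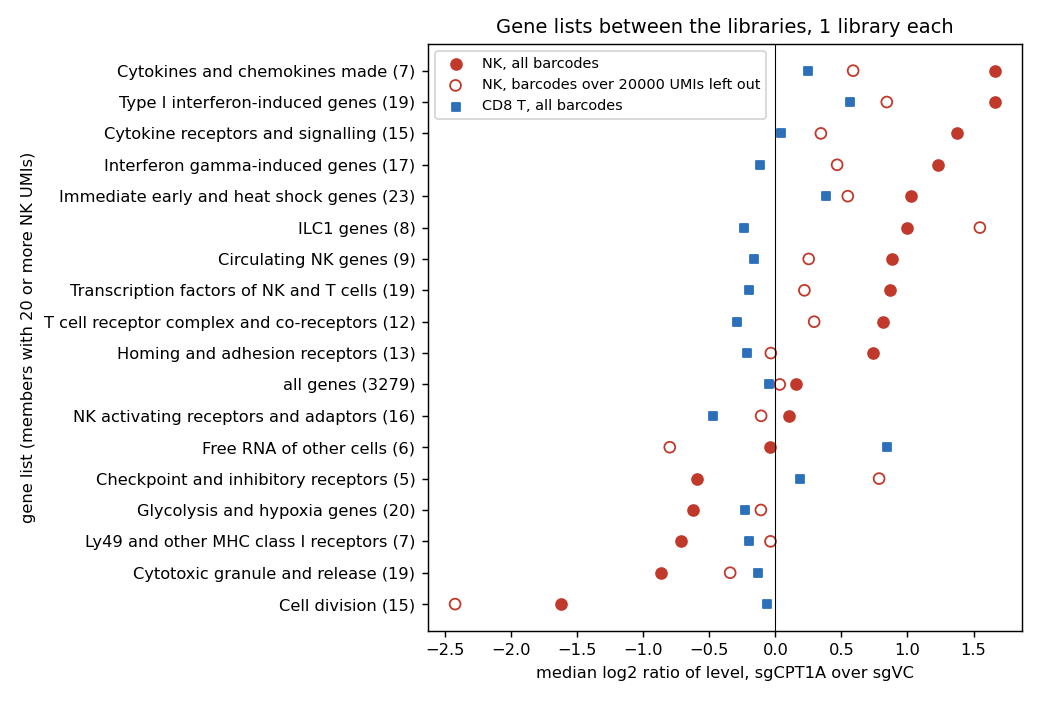
Median log2 ratio of sgCPT1A over sgVC for each gene list, with the number of members that had at least 20 NK UMIs; filled red circles are all NK barcodes, open circles leave out those over 20000 UMIs, and blue squares are CD8 T cells. There is 1 library a group and no error bar; for cytokines and chemokines the median moves from 1.67 to 0.59.

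Genes were ranked between libraries only where the NK level, in the library where it was higher, was at least 25% of that of the highest gated class. Of these, the highest sgCPT1A over sgVC ratios were those of Il7r, a 7SK gene copy, Tent5a, Lta, Serpine2, Spry2, Sgk1 and Trim26. Il7r, the IL-7 receptor chain found on ILC and on resting T cells, had 1 UMI in sgVC and 30 in sgCPT1A (2.78 and 216 CPM), and 64.5% of these came from 1 cell. Spry2 was at 69.5 (45.0 to 103) and 527 (413 to 662). Tent5a, a poly(A) polymerase, was at 30.6 and 281. The lowest were those of Gzmg, Gzmf, Gzme, Gzmd, Spp1, Serpinb9b, Havcr2 and Cd55. The 25% limit left out genes with ratios as far from 1, among them Ccl3 (log2 ratio 3.69), Hspa1b (2.77) and Ifitm1 (-6.56, with 245 UMIs in sgVC and 1 in sgCPT1A). These 8 include genes of the 8 granzyme-rich sgVC cells described above. Spp1 was at 21453 and 433, and at 4051 in sgVC without the deep barcodes. Of its 7714 sgVC UMIs, 5980 were in 1 cell. Cpt1a itself, targeted in the tumour line and not in the host, had 5 UMIs in sgVC and 8 in sgCPT1A NK cells.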

How the data were processed

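Whole-tumour cells were measured by 10x Genomics 3′ single-cell sequencing. The authors deposited raw UMI counts, a gene-by-barcode matrix for each library, written by Cell Ranger 7.1.0 per the file headers. GRCm38 and Seurat 4.1.0 are listed beside Cell Ranger in the submitters' processing notes. Gene coordinates came from GENCODE M21. The members, gene lists and named-gene rule were chosen with earlier results of these data known.

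Counts were summed per class and library and expressed as CPM. The test was edgeR 4.0.16 (R 4.3.3) with TMM scaling, a library block and at least 20 UMIs over the 4 sums, and genes used by the NK or CD8 rule stayed in the fit but out of every count. DESeq2 1.42.0 was an alternative. Ratios have exact conditional binomial intervals, levels exact Poisson intervals and shares Clopper-Pearson intervals at 95%, all for counting error only; a count of 0 was set at 3 counts for lower bounds. For thinning, cells were sampled to 1000 UMIs. The fit was tested on simulated counts. Named genes were the 12 highest and 12 lowest called ratios of NK over CD8 T cells (same sign in both libraries, at least 50 UMIs over the 4 sums) and the 8 highest and lowest between libraries (at least 30 NK UMIs, an interval excluding 0, and an NK level at least 25% of the highest gated class), plus up to 4 members of each of 19 lists. Both rankings left out sex-linked and haemoglobin genes, predicted genes, genes of mitochondria or of ribosomal proteins, immunoglobulin and receptor segments, and the genes of the gates. Granzymes of the chromosome 14 cluster, its neighbours and the limit of 20 granzyme UMIs were chosen after values were seen. Some genes that met these rules are not reported here.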

Additional observations from a re-analysis of the deposited data

Results flagged for a closer look

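Genes were picked out here because the NK over CD8 T cell difference went 1 way in the sgVC library and the other way in the sgCPT1A library. Each library holds 1 value per class, and the difference between libraries was not tested. Havcr2 was higher in NK cells of sgVC (log2 ratio 2.27) and lower in those of sgCPT1A (-3.97), and Gzmb likewise (1.62 and -0.30). Smaller differences of this kind were seen for Ldha (0.62 and -0.45) and H2az1 (0.36 and -0.36). The order was the other way round for Serpine2 (-2.21 in sgVC and 1.82 in sgCPT1A), Ccl5 (-1.50 and 1.18), Isg15 (-1.29 and 0.73), Ccl4 (-0.32 and 2.35) and Nkg7 (-0.25 and 0.24).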

How the results depend on the processing

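Between NK and CD8 T cells, 142 genes were higher and 236 lower. These counts became 20 and 15 with DESeq2 and 2 and 0 with no replicate block (228 and 297 at an unadjusted edgeR p under 0.05). They were 44 and 58 with cells thinned to 1000 UMIs, 70 and 117 against CD8 T cells with under 3 NK-gene UMIs, and 75 and 73 with at least 2 UMIs of the NK genes. The lower count was 143 without barcodes over 1% S100a8 and S100a9 UMIs and 91 without fibroblast-mixed barcodes. No paired analysis was possible because each library stands alone for the comparison between libraries. There, the 2-fold counts of 524 and 327 became 24 and 47 after thinning, 184 and 135 without barcodes over 20000 UMIs, and 167 and 129 for genes with at least 50 UMIs. The NK share in sgVC was 0.604% with a limit of 2 UMIs, 0.271% with 5, and 0.0891% with the rule applied after thinning. In sgCPT1A it was 0.163% with 5 UMIs and 0.0323% after thinning. Leaving out barcodes with fibroblast transcripts or over 20000 UMIs and weighting cells equally were chosen after seeing the data.

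Some log2 ratios of NK over CD8 T cells changed sign: leaving out each library in turn, Ccl4 ranged from -0.32 (without sgCPT1A) to 2.35, Ccl3 from -0.26 (without sgCPT1A) to 2.30 and Tnfrsf9 from -0.19 (without sgVC) to 3.08, and Ccl3 was -0.44 with at least 5 NK UMIs. For sgCPT1A over sgVC within NK cells, thinning changed the sign for Xcl1, Tnf, Vegfa and Ly6c2 but left almost no difference (each -0.035). Thinning reversed Prf1 (0.46), Klrk1 (-0.80) and Pdgfa (1.97). Leaving out barcodes over 20000 UMIs reversed Pdgfa (0.83) and Gzmb (0.38). Equal weight for every cell reversed Trgc4 (-0.19) and Prf1 (0.13), and a limit of 2 UMIs reversed Ifitm3 (-0.46). The sign also changed, with almost no difference left, for Klrk1 with equal weight (-0.073) and Trgc4 with a limit of 5 UMIs (-0.044). Apart from the settings named, the cause of these changes was not tested.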
